A study of Mus musculus with 9 samples.

Results

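Expression of 42 cell division genes was examined in nuclei of the mouse heart after ischemia and reperfusion. The genes were taken by symbol from a list chosen with earlier results of these data known. All 42 were found among the 32285 genes of the deposited count matrices. By role they fell into 9 groups. Mki67 and Top2a encode the proliferation marker Ki-67 and DNA topoisomerase II alpha. Cenpf, Cenpe, Cenpp, Knl1, Bub1, Bub1b and Cdca8 act at the kinetochore, in the spindle checkpoint or in the chromosomal passenger complex. Kif11, Kif15, Kif20b, Kif23, Kif4, Aspm, Hmmr, Nusap1, Prc1 and Tpx2 encode spindle motors and microtubule-binding proteins, and Anln, Ect2 and Diaph3 encode proteins of cytokinesis. Ccna2, Ccnb1, Ccnb2 and Cdk1 are the mitotic cyclins and their kinase, and Ncapg, Ncapg2, Smc4 and Smc2 are condensin subunits. The other 12 genes act in DNA replication and nucleotide supply (Mcm3, Mcm5, Mcm6, Pola1, Rrm1, Rrm2), DNA repair (Brca1, Brip1) or chromatin and the nuclear lamina (Atad2, Ezh2, Lmnb1, Hells). Below, these 12 are called the replication and chromatin genes and the other 30 the chromosome division genes.

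A cell that enters the cell cycle first makes the proteins that load and fire replication origins, among them the Mcm helicase subunits, and later the proteins that condense and separate its chromosomes and split the cell. Transcription of the first set is known to be driven by E2F factors at the start of S phase, and that of the second set by protein complexes that bind CCAAT boxes and a short element called the cell cycle genes homology region, or CHR, in G2 and mitosis. In the adult heart, resident macrophages, fibroblasts and endothelial cells are known to divide, whereas cardiomyocytes rarely complete division. After infarction, resident macrophages are known to be lost and replaced by recruited monocytes, and fibroblasts to start proliferating within days.

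The study compared 3 groups of wild-type male mice aged 9 to 10 weeks, with 3 single-nucleus RNA-seq libraries per group, under a title that names TLR7 and ITGAM in cardiac ischemic injury. NS-Sham mice received normal saline and a thoracotomy without occlusion. NS-I/R mice received normal saline and had the left anterior descending coronary artery occluded for 45 min, with 24 h of reperfusion. Enpa-I/R mice underwent the same occlusion and received enpatoran, an antagonist of the innate immune receptor TLR7, at 5 mg/kg by intraperitoneal injection. Saline or enpatoran was given in 2 injections, the first 1 h before ischemia, and the sources differ on when the second was given. The strain was not stated, and whole hearts were powdered, so injured and remote muscle were mixed. The labels number the libraries as replicates without saying that each came from a different mouse. The p-values therefore measure only the spread between these libraries, which may in part be technical. In lists of values, libraries 1, 2 and 3 come in that order, "after I/R" refers to NS-I/R and "with enpatoran" to Enpa-I/R.

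After filtering, 41982 of 56766 barcodes were kept as nuclei, between 3160 and 6471 per library, with median UMI totals per nucleus of 2365 to 3263.5. Any 2 libraries shared between 1 and 11 barcodes. The nuclei formed 26 clusters, clustered without the 42 genes, and 25 of them met the marker rule for a class. Of the classes, 5 held enough nuclei in every library to be tested. These were macrophage-like, fibroblast-like, endothelial-like, pericyte-like and cardiomyocyte-like nuclei. NS-I/R 3 stood apart from the other NS-I/R libraries over all genes. Without it, the genes called between Enpa-I/R and NS-I/R went from 19.0% to 43.9% in cardiomyocyte-like and from 9.60% to 38.7% in fibroblast-like nuclei, so counts are given with and without it. Some counts from alternative fits stand without the share of all genes called in that fit. Such a count alone does not show a change particular to the 42 genes. Levels are given as UMIs of a gene per 1000000 UMIs of that class in that library (CPM).

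Promoter sequences of 37 of the 42 genes were read from RefSeq (GRCm38.p6), from 250 bases before to 50 after the transcription start. They were searched on both strands for the CHR letters TTTGAA, for CCAAT and for the E2F-type letters TTTGGCGC, TTTCCCGC, TTTCGCGC or TTTGCCGC. They are shown because TTTGAA and the E2F-type letters differed in share between the 2 kinds of genes that are summed apart below. CCAAT was common in both kinds. Each line gives the 150 bases before the start, 5′ to 3′ on the gene's strand, with matches of any motif in capitals. The first 4 are chromosome division genes and the last 3 replication and chromatin genes, chosen by eye to show both kinds.
Mki67: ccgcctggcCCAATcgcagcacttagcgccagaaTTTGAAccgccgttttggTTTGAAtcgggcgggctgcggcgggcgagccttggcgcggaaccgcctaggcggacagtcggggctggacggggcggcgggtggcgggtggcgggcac
Top2a: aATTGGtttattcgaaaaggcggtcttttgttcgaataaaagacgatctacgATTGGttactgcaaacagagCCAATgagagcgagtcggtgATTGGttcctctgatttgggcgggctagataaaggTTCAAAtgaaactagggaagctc
Cdk1: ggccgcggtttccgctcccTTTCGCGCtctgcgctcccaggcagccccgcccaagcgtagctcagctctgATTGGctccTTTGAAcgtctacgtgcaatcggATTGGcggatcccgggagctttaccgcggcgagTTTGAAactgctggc
Kif11: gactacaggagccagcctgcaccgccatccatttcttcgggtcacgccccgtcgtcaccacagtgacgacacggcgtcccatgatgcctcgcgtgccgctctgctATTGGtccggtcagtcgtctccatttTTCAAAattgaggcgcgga
Mcm6: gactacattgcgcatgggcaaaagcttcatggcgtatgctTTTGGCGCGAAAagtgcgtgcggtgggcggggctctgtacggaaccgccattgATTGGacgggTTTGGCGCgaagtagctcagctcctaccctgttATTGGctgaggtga
Hells: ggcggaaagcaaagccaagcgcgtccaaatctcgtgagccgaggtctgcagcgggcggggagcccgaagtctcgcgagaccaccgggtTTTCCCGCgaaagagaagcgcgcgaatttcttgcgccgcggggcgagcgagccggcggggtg
Pola1: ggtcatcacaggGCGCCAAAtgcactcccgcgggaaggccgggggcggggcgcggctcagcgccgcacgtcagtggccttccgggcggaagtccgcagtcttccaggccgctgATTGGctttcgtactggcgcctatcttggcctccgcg
The stretches lie at Mki67 chr7:135716380-135716529 (minus strand), Top2a chr11:99024190-99024339 (minus strand), Cdk1 chr10:69352913-69353062 (minus strand), Kif11 chr19:37376232-37376381 (plus strand), Mcm6 chr1:128359706-128359855 (minus strand), Hells chr19:38930840-38930989 (plus strand) and Pola1 chrX:93632156-93632305 (minus strand). TTTGAA was present in the promoters of 21 of 27 chromosome division genes (77.8%), in 0 of 10 replication and chromatin genes and in 18.1% of all 27025 promoters. CCAAT was present in 20 of 27 (74.1%), 9 of 10 (90%) and 37.9%, respectively. The E2F-type letters were present in 4 of 27 (14.8%), 6 of 10 (60%) and 2.32%. Both TTTGAA and CCAAT occurred in 16 of 27 chromosome division genes (59.3%) against 7.12% of all promoters. In Mki67 and Top2a the matches were to TTTGAA and CCAAT, in Mcm6 to CCAAT and the E2F-type letters, and in Hells to the E2F-type letters alone. In Mcm6, 2 E2F-type matches on opposite strands overlap. In the 37 windows, matches of different motifs shared bases at 1 place, in Cdca8. These are letter matches and were not tested as binding sites. Ccna2, Smc4, Tpx2, Atad2 and Lmnb1 have no sequence shown.

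Among the 5 tested classes the 42 genes were most abundant, as a sum, in macrophage-like nuclei of sham hearts. Their summed level there was 812.2, 1691 and 3298 CPM in NS-Sham libraries 1, 2 and 3. It was 674.1, 727.7 and 439.0 CPM in the NS-I/R libraries and 684.1, 476.5 and 657.8 CPM in the Enpa-I/R libraries. Every sham library was above every I/R library, but the sham libraries also differed widely among themselves. The means were 1930 ± 1260 CPM in NS-Sham, 614 ± 154 after I/R and 606 ± 113 with enpatoran (SD, n = 3 each), a ratio of 0.317 between the first pair and 0.988 between the second. Of the 5 classes, cardiomyocyte-like nuclei held the lowest summed level, 220 ± 13.8, 155 ± 13.6 and 156 ± 8.7 CPM. There too the 3 sham libraries stood above all I/R libraries, but genes of different roles did not move together. From NS-Sham to NS-I/R the mean of the kinetochore role went from 84.3 to 22.5 CPM. Cenpp, whose reads cannot be told apart with certainty from those of overlapping genes, gave most of that fall. The means of the DNA replication role and of the chromatin and lamina role also fell. Those of the other roles were higher, among them spindle (7.63 to 18.7 CPM) and cyclins (1.16 to 2.9 CPM). In fibroblast-like nuclei the mean sum of the 42 genes was lowest in NS-Sham, with 516 ± 96.0, 571 ± 91.8 and 724 ± 134 CPM, and the 3 groups overlapped. Endothelial-like nuclei held 513 ± 168, 432 ± 40.6 and 378 ± 24.9 CPM and pericyte-like nuclei 360 ± 3.75, 461 ± 74.2 and 370 ± 25.8 CPM. In a sum over nuclei, fewer dividing nuclei and less RNA per nucleus cannot be told apart.

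The share of nuclei in which at least 3 of the 42 genes were detected was taken after thinning every nucleus to 1000 UMIs, since detection rises with depth. In macrophage-like nuclei the share was 4.65%, 7.24% and 15.04% in the NS-Sham libraries. It was 2.23%, 0.831% and 0.680% after I/R and 2.30%, 1.26% and 4.09% with enpatoran. The sham libraries were all above the I/R libraries. The means were 8.98% ± 5.41, 1.25% ± 0.853 and 2.55% ± 1.43. Without thinning the shares were 15.6% to 18.1%, 5.59% to 10.3% and 9.56% to 13.4%, with median depths of 1902.5 to 3238.5 UMIs per nucleus. Thinning left out 26 to 78 macrophage-like nuclei per library. In fibroblast-like nuclei the thinned shares were 0.833% ± 0.180, 1.05% ± 0.882 and 2.62% ± 1.62. Cardiomyocyte-like nuclei, with median depths of 6455 to 10466 UMIs, gave 5 of 3240, 2 of 2915 and 0 of 3157 thinned nuclei. The last allows a share of up to 0.095%, a limit that pools the libraries and covers counting error only. Pericyte-like nuclei gave 5 of 1064, 7 of 974 and 1 of 963, at median depths of 1950 to 2756 UMIs. Single pericyte-like libraries reached at most 0.851%, 0.997% and 0.465% in the 3 groups. The macrophage-like shares were above 0.997% in every library except NS-I/R 2 and NS-I/R 3.

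**Figure D1:**
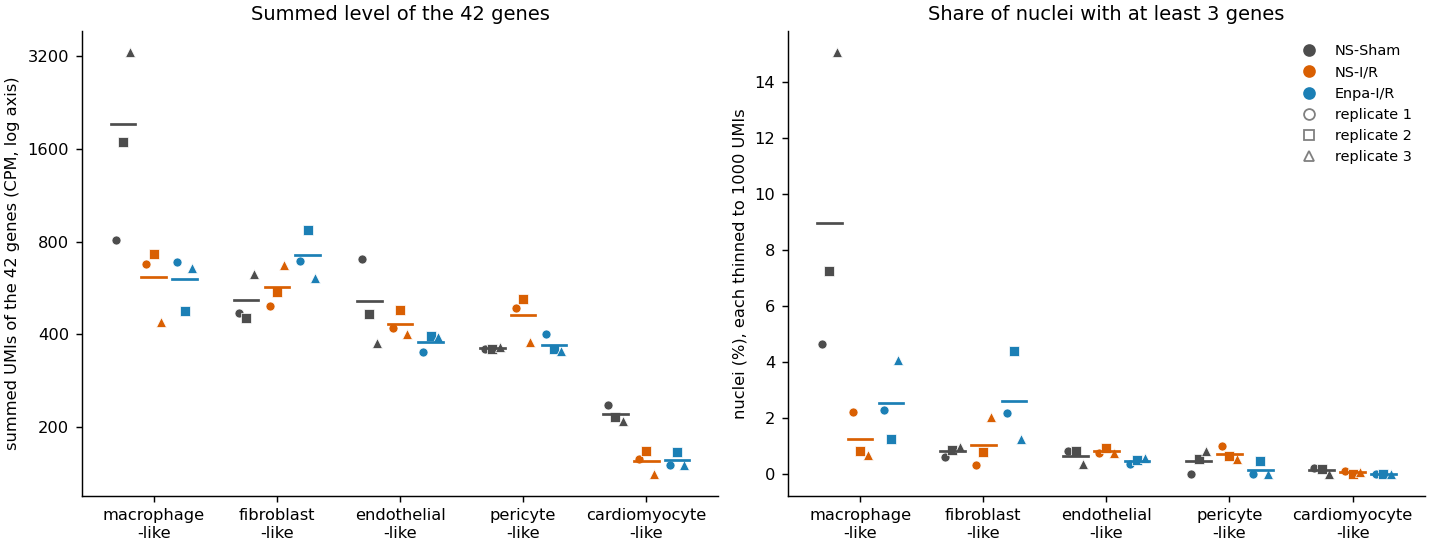
Left, summed level of the 42 genes in CPM (log axis) in 5 classes of nuclei. Right, percent of nuclei with at least 3 of the genes after thinning to 1000 UMIs. Each point is a library, colours are groups, shapes are replicate numbers and lines are group means; the 3 NS-Sham libraries stand highest in macrophage-like nuclei on both axes.

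Genes were tested one at a time with edgeR's quasi-likelihood test on UMIs summed per library and class, and a gene is called changed at a Benjamini-Hochberg adjusted p under 0.05 over all genes tested in that class. Low-count genes were not tested, and 7 of the 42 were tested in no class. Only 8 were tested in all 5 classes. For NS-I/R against NS-Sham, 13 of the 42, among them the 7 not tested, were called in no class. Another 16 were called in 1 class, 11 in 2 classes and 2 in 4 classes. The same count was not made over all genes, whose share called is given below for each class. The 2 were Cenpp and Atad2. Cenpp was lower in macrophage-like, fibroblast-like, pericyte-like and cardiomyocyte-like nuclei. Atad2, a chromatin ATPase, was lower in macrophage-like, endothelial-like and cardiomyocyte-like nuclei and higher in pericyte-like nuclei. Aspm, Nusap1, Prc1 and Anln also moved in both directions, falling in macrophage-like and rising in cardiomyocyte-like nuclei.

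**Figure D2:**
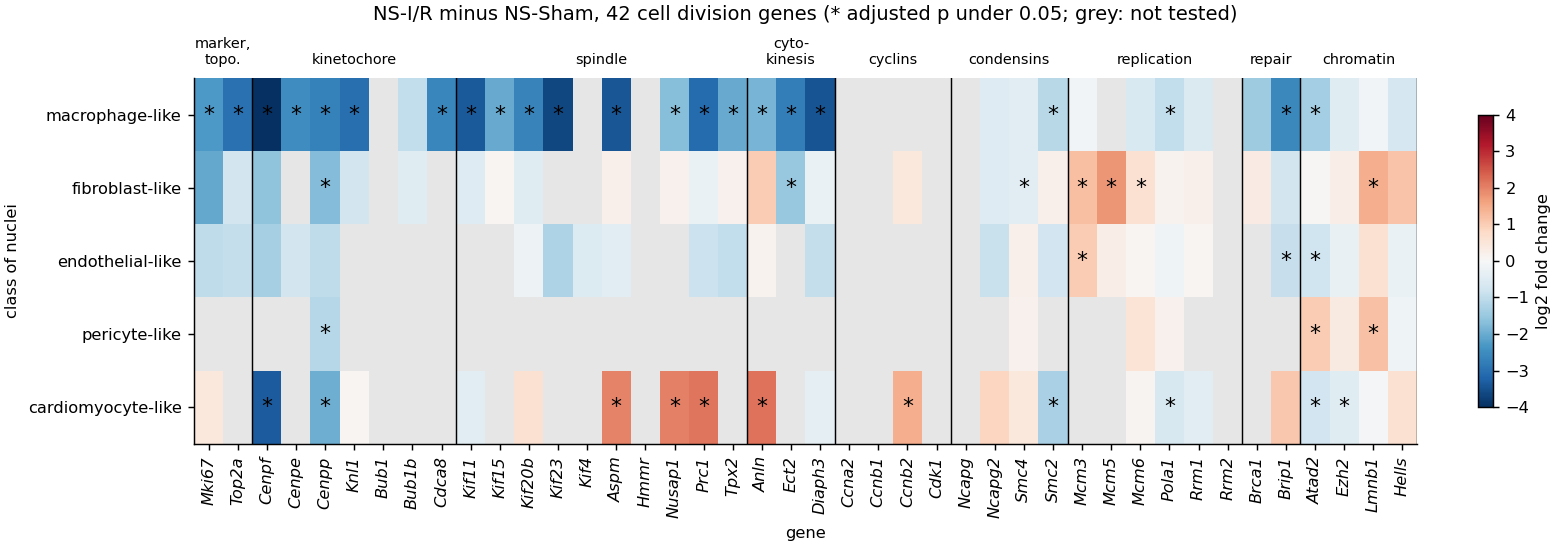
Log2 fold change of each of the 42 genes (columns, grouped by role) in NS-I/R against NS-Sham in 5 classes of nuclei (rows), with blue lower and red higher in NS-I/R. Asterisks mark adjusted p under 0.05 and grey marks genes not tested; 22 genes are marked in macrophage-like nuclei, where the marked cells are blue.

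In macrophage-like nuclei, 22 of the 32 genes tested were lower in NS-I/R than in NS-Sham and 0 were higher. Of all genes tested in this class, 34.7% were called, 17.9% higher and 16.9% lower. The median log2 fold change was -2.03 over the 32 genes and 0.03 over all genes tested. By role, the genes that fell were 2 of 2 tested in the marker and topoisomerase group, 5 of 6 kinetochore genes, 8 of 8 spindle genes, 3 of 3 cytokinesis genes and 1 of 3 condensin genes. Of the replication and chromatin genes, 3 of 10 fell. Bub1, Kif4, Hmmr, Ccna2, Ccnb1, Ccnb2, Cdk1, Ncapg, Mcm5 and Rrm2 had too few UMIs to be tested. Of the 22 genes that fell, 13 had no overlap between the NS-Sham and NS-I/R libraries, which is 40.6% of the 32 tested, against 32.5% of all genes that were called without overlap. Of all called genes in this class 93.4% had no overlap.

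Top2a, which untangles DNA, was at 15.7, 57.0 and 184 CPM in the NS-Sham libraries, 13.7, 14.3 and 3.14 CPM after I/R and 17.6, 6.96 and 12.3 CPM with enpatoran. The NS-I/R libraries were all below the sham libraries, though NS-Sham 1 was close to them. The log2 fold change of Top2a was -2.99 (SE 0.67, adjusted p = 0.00269 by edgeR). Mki67 was at 4.71, 92.5 and 184 CPM in NS-Sham and 15.4, 37.1 and 5.49 CPM after I/R. Here the groups overlapped, because NS-Sham 1 was the lowest of all 6. Mki67 fell by 2.29 on the log2 scale (SE 0.73, adjusted p = 0.0233), and this call was lost without NS-Sham 2, NS-Sham 3 or NS-I/R 1, and with DESeq2.

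Among kinetochore genes, Cenpf, a large protein of the outer kinetochore, showed the deepest fall. Its levels were 9.43, 60.7 and 105 CPM in NS-Sham, 2.56, 2.85 and 4.70 CPM after I/R and 0.878, 0.774 and 2.24 CPM with enpatoran, with no overlap between sham and either I/R group. Its log2 fold change was -4.03 (SE 0.65, adjusted p = 0.000225). Cdca8, the borealin subunit of the chromosomal passenger complex, was at 14.1, 18.7 and 25.6 CPM in NS-Sham and 2.56, 3.8 and 3.14 CPM after I/R. Its log2 fold change was -2.60 (SE 0.45, adjusted p = 0.000379). Knl1, the scaffold to which checkpoint proteins dock, and Cenpe, a kinetochore motor, fell by 3.03 and 2.50 on the log2 scale (adjusted p = 0.0139 and 0.00216). Bub1b, a checkpoint kinase-like protein, had a log2 fold change of -0.97 that did not pass (adjusted p = 0.26).

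All 8 spindle genes tested fell. Kif23, the motor of the central spindle, was at 51.8, 88.7 and 164 CPM in NS-Sham, 12.8, 3.8 and 7.06 CPM after I/R and 16.7, 12.4 and 23.5 CPM with enpatoran. The lowest sham library was above every I/R library, and the log2 fold change was -3.65 (SE 0.44, adjusted p = 1.58e-05). Kif11, which pushes spindle poles apart, and Prc1, which bundles midzone microtubules, fell by 3.35 and 3.09 (adjusted p = 0.00611 and 0.00309). Aspm, a spindle pole protein, was at 11, 40.2 and 76.8 CPM in NS-Sham, at 4.27, 7.60 and 0 CPM after I/R and at 0 in each Enpa-I/R library. The remaining 4 were Kif20b (-2.67), Tpx2 (-2.03), Kif15 (-2.02) and Nusap1 (-1.69), given as log2 fold changes.

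The 3 cytokinesis genes fell as well. Diaph3, a formin that builds actin filaments, was at 50.3, 107 and 192 CPM in NS-Sham, 11.1, 15.2 and 6.27 CPM after I/R and 27.2, 17.8 and 24.6 CPM with enpatoran. Again no sham library overlapped an I/R library, and the log2 fold change was -3.44 (SE 0.42, adjusted p = 2.05e-05). Ect2, which activates RhoA at the division plane, and Anln, which scaffolds the contractile ring, fell by 2.78 and 1.87 on the log2 scale (adjusted p = 0.00168 and 0.00867).

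**Figure D3:**
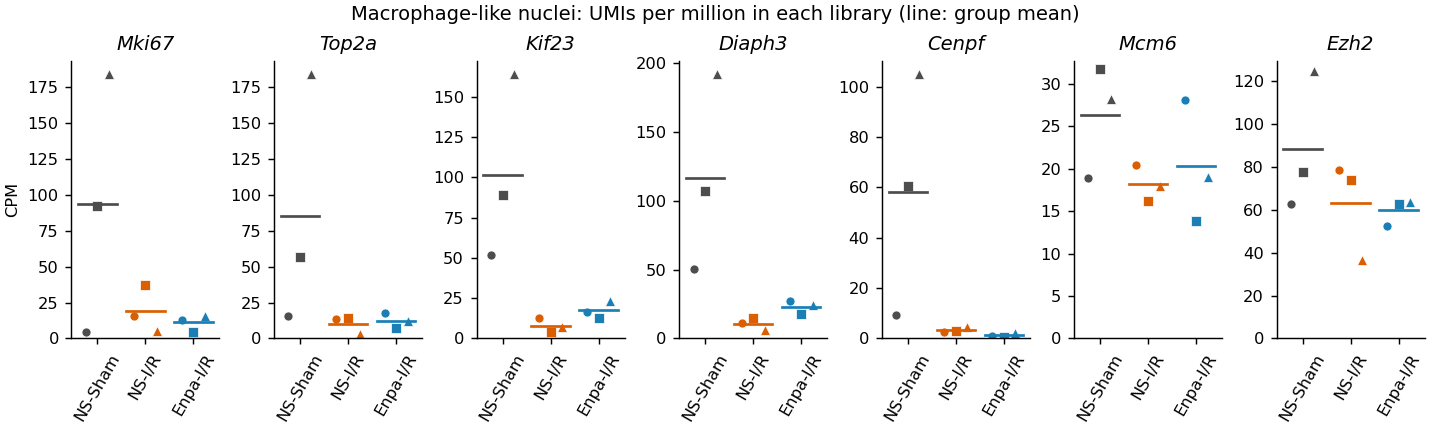
CPM of 7 genes in macrophage-like nuclei, with 1 point per library, shapes for replicate numbers, colours for groups and lines at group means; each panel has its own linear axis from 0. Top2a, Kif23, Diaph3 and Cenpf show all NS-Sham points above the NS-I/R points, whereas Mki67, Mcm6 and Ezh2 show overlapping groups.

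The replication and chromatin genes behaved less uniformly in macrophage-like nuclei. Pola1, the catalytic subunit of DNA polymerase alpha, was at 124, 226 and 187 CPM in NS-Sham and 93.9, 102 and 87.8 CPM after I/R, and fell by 0.99 on the log2 scale (SE 0.20, adjusted p = 0.00134). Brip1, a helicase that partners Brca1, fell by 2.57 (adjusted p = 0.000423) and Atad2 by 1.36 (adjusted p = 0.00101). Mcm3, Mcm6, Rrm1, Brca1, Ezh2, Lmnb1 and Hells did not pass, with log2 fold changes between -1.43 (Brca1) and -0.11 (Mcm3 and Lmnb1). As sums, the 30 chromosome division genes were at 471, 1130 and 2590 CPM in NS-Sham and 364, 385 and 191 CPM after I/R. The 12 replication and chromatin genes were at 341, 559 and 712 CPM and 311, 343 and 248 CPM, respectively. In both sums NS-Sham 1 lay nearest to the NS-I/R libraries.

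In NS-Sham 2 and NS-Sham 3 most UMIs of the 42 genes in macrophage-like nuclei sat in few nuclei, and in NS-Sham 1 a smaller part did. At least 5 of the 42 genes were detected in 11 of 250, 32 of 414 and 21 of 160 macrophage-like nuclei of the NS-Sham libraries. These nuclei held 35.8%, 73.2% and 88.2% of all UMIs of the 42 genes in the class. As they were picked by the same 42 genes, these shares and the detection rates below follow in part from that choice. In NS-I/R there were 11 of 467, 8 of 409 and 6 of 519 such nuclei, with 26.7%, 34.6% and 19.1% of the UMIs. Enpa-I/R had 10 of 429, 11 of 344 and 10 of 362. Over the groups this was 7.77%, 1.79% and 2.73% of macrophage-like nuclei, and after thinning 6.44% ± 5.34, 0.508% ± 0.261 and 0.950% ± 0.551 (SD, n = 3 each). Of the 64 such sham nuclei, Smc4 was detected in 68.8%, Kif23 in 65.6%, Diaph3 in 60.9%, Mki67 in 56.2% and Top2a in 46.9%. The 58 mitosis genes of a separate list, of which none is among the 42, summed to 5390 CPM in these nuclei and 439 CPM in sham macrophage-like nuclei with fewer than 3 of the 42. One nucleus of NS-Sham 3 had 32 of the 42 genes detected.

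The macrophage-like class changed its make-up between groups. A cluster with F13a1, Mrc1 and Cd163 among its leading genes held 93.8% of the class in NS-Sham, 48% after I/R and 61.7% with enpatoran. Another, with F13a1, Arg1, Tgfbi and also Mrc1 among its leading genes, held the other 6.19%, 52% and 38.3%. F13a1 and Mrc1 thus led both clusters and do not tell them apart. Within the Cd163-led cluster alone the 42 genes summed to 830, 1712 and 3194 CPM in NS-Sham and 814.9, 1025 and 483.4 CPM after I/R, so that NS-Sham 1 and the NS-I/R libraries overlapped. There, 8 of 21 genes tested were lower and 0 higher, where 22.8% of all genes were called (11.5% lower), a split added after the data were seen. Summed over 6 markers each, neutrophil markers in the class ranged over 61.5 to 89.5 CPM in NS-Sham and 238 to 705 CPM after I/R. B-cell markers ranged over 658 to 862 and 187 to 283 CPM, cardiomyocyte markers over 3110 to 4060 and 1800 to 2030 CPM. In NS-Sham the B-cell list reached 2610 to 2810 CPM in endothelial-like, 3050 to 3460 in fibroblast-like and 5570 to 6320 in pericyte-like nuclei. It was at 30.6 to 39.9 CPM in cardiomyocyte-like nuclei. The sum of that list is thus not particular to B cells. The part of these markers in the falls was not tested. Leaving out 1 library at a time gave between 15 and 26 calls among the 42, and 22 without NS-I/R 3. Of the genes described above, Kif11 and Knl1 lost their call without NS-Sham 3, and Cenpf, Kif23, Diaph3, Prc1 and Top2a kept theirs under every alternative in which they were tested.

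Between Enpa-I/R and NS-I/R, 0 of the 32 genes tested in macrophage-like nuclei were called by edgeR and 0 by DESeq2, with 5 at an unadjusted p under 0.05, where 6.28% of all genes were called (2.89% higher and 3.39% lower). The median log2 fold change of the 32 was -0.10, and without NS-I/R 3 the count was 2, Aspm and Smc4, both lower, against 19.6% of all genes. This comparison and the previous one share the NS-I/R libraries.

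The fall in macrophage-like nuclei was compared with that in other classes by testing the difference of effects. The difference between macrophage-like and fibroblast-like nuclei was called for 13 of 34 genes, each more negative in macrophage-like nuclei, against 13.8% of all genes. Kif23 (-3.25), Aspm (-3.66) and Diaph3 (-3.04) had the greatest differences on the log2 scale. Kif23 had too few UMIs to be tested in fibroblast-like nuclei alone, and Mcm5, also among the 13, in macrophage-like nuclei alone. Each passed the filter through the class where it was high, which favours the direction called. Against endothelial-like nuclei it was called for 5 of 35, a count near the 12.6% of all genes. These 5 were Kif23, Kif20b, Diaph3, Brip1 and Pola1, each more negative in macrophage-like nuclei. For enpatoran against saline, the difference of effects was called for 0 genes in either pair of classes by edgeR, against 2.11% and 1.81% of all genes, with 7 of 34 and 0 of 35 at an unadjusted p under 0.05.

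In fibroblast-like nuclei, 7 of 31 genes tested were called between NS-I/R and NS-Sham, 4 higher and 3 lower, where 46.6% of all genes were called (23.3% in each direction). The share among the 31 was thus below that of all genes. The 4 that rose were Mcm3, Mcm5, Mcm6 and Lmnb1, all replication and chromatin genes, and the 3 that fell were Cenpp, Ect2 and Smc4, all chromosome division genes. Cenpe, Bub1, Cdca8, Kif23, Kif4, Hmmr, Ccna2, Ccnb1, Cdk1, Ncapg and Rrm2 were not tested.

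Lmnb1, which encodes the nuclear lamina protein lamin B1, was at 16.8, 18.3 and 19.3 CPM in the NS-Sham libraries, 55.8, 58.1 and 52.7 CPM after I/R and 55.4, 63.5 and 53.2 CPM with enpatoran. Sham and I/R libraries were far apart with little spread within groups, and the log2 fold change was 1.46 (SE 0.14, adjusted p = 8.41e-06). The Mcm genes encode subunits of the replicative helicase. Mcm3 was at 1.91, 4.24 and 4.35 CPM in NS-Sham and 8.85, 6.93 and 11.8 CPM after I/R. It rose by 1.20 on the log2 scale (SE 0.34, adjusted p = 0.0118). Mcm5 was at 0.763, 1.29 and 1.93 CPM in NS-Sham, 2.95, 1.67 and 10.2 CPM after I/R and 9.50, 8.93 and 7.99 CPM with enpatoran. NS-I/R 2 lay within the sham range and NS-I/R 3 well above the others, and the log2 fold change was 1.78 (SE 0.66, adjusted p = 0.0416). Mcm6 rose by 0.60 on the log2 scale (adjusted p = 0.0428), from 11.1, 11.8 and 15.5 CPM to 19.6, 16.7 and 27.0 CPM. Ect2 fell from 3.43, 1.85 and 3.38 CPM to 0.537, 0.717 and 1.74 CPM (log2 fold change -1.52, adjusted p = 0.0309), and Smc4 fell by 0.43 on the log2 scale (adjusted p = 0.0273). Of these, Lmnb1 and Mcm3 kept their call with any 1 library left out. Mcm5 and Mcm6 lost theirs without NS-I/R 3 and in most other such fits. Without NS-Sham 1 the count was 3, and without NS-I/R 3 it was 11, with 3 higher (Lmnb1, Mcm3 and Anln) and 8 lower, where 56.8% of all genes were called.

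Mki67 was nearly undetected in fibroblast-like nuclei, at 0.382, 0.554 and 8.21 CPM in NS-Sham, 0, 0 and 1.74 CPM after I/R and 3.24, 3.08 and 0.592 CPM with enpatoran. Top2a was at 0.382, 0.923 and 11.1 CPM in NS-Sham, 0, 1.91 and 4.58 CPM after I/R and 6.02, 21.9 and 2.96 CPM with enpatoran. NS-Sham 3 was highest of the sham libraries for both, and the groups overlapped. In that library 1 nucleus alone held 347 UMIs of the 42 genes. Neither gene passed (adjusted p = 0.205 for Mki67 and 0.638 for Top2a), and without NS-Sham 3 both log2 fold changes turned positive, to 0.17 and 1.42.

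One cluster of fibroblast-like nuclei was rare in sham hearts. This Tnc-led cluster held 0.281% to 1.08% of the class in NS-Sham, 46.8% to 49.9% after I/R and 34.0% to 38.4% with enpatoran. In it the 12 replication and chromatin genes summed to 387, 382 and 642 CPM after I/R and 721, 936 and 615 CPM with enpatoran. The 30 chromosome division genes summed to 118, 149 and 230 CPM and 312, 465 and 240 CPM, respectively. In the Abca8a-led cluster, which held most sham nuclei, the 12 genes summed to 264, 274 and 299 CPM in NS-Sham, 307, 394 and 267 CPM after I/R and 292, 280 and 270 CPM with enpatoran. The Tnc-led cluster was thus above it in every Enpa-I/R library and in NS-I/R 1 and 3, but not in NS-I/R 2. The sums of all 42 genes in the Abca8a-led cluster were 459, 453 and 646 CPM in NS-Sham, 488, 577 and 427 CPM after I/R and 431, 465 and 422 CPM with enpatoran, and overlapped. Within that cluster alone 1 of 15 genes tested, Cenpp, was called between NS-I/R and NS-Sham and was lower, where 27.1% of all genes were called (13.4% lower), a split added after the data were seen.

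**Figure D4:**
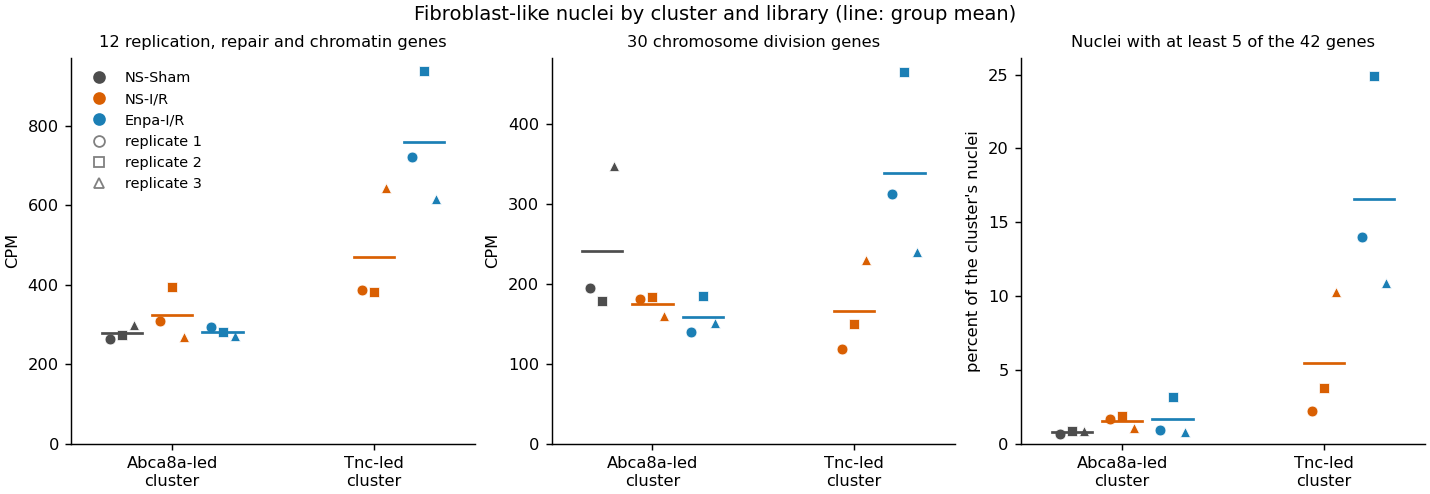
Fibroblast-like nuclei by cluster, with 1 point per library, colours for groups, shapes for replicate numbers and lines at group means. The panels show the summed CPM of the 12 replication and chromatin genes, that of the 30 chromosome division genes and the percent of nuclei with at least 5 of the 42 genes, without thinning; in the Tnc-led cluster that percent was 2.23 to 10.3 in NS-I/R and 10.9 to 24.9 in Enpa-I/R, and sham is not drawn there for lack of nuclei.

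Nuclei with at least 5 of the 42 genes were counted in each class without thinning. In NS-Sham there were 200, of which 32% were macrophage-like, 32% cardiomyocyte-like and 12% fibroblast-like. In NS-I/R there were 283, of which 8.83%, 18% and 42.4% were, and with enpatoran 259, of which 12%, 11.2% and 64.5% were. As a share of fibroblast-like nuclei this was 0.871%, 3.69% and 6.34%. After thinning to 1000 UMIs the share was 0.217% ± 0.251, 0.147% ± 0.255 and 0.461% ± 0.225 (SD, n = 3 each). So few nuclei reached 5 genes at 1000 UMIs that these shares cannot show whether the rise held at equal depth. With at least 2 genes the thinned shares were 6.40% ± 1.36, 8.25% ± 1.13 and 8.35% ± 1.83, and with at least 3 genes 0.833%, 1.05% and 2.62%. In the fibroblast-like nuclei with at least 5 genes, counted without thinning, the 58 mitosis genes of the separate list, which are not among the 42, were summed. They were at 254, 308 and 601 CPM after I/R, against 282, 308 and 268 CPM in the other fibroblast-like nuclei, and were above them in NS-I/R 3 alone. With enpatoran they summed to 754, 806 and 618 CPM against 261, 261 and 272 CPM. The genes in such nuclei, which were picked by the same 42 genes, differed by class. In the 167 of Enpa-I/R fibroblast-like nuclei, Pola1 was detected in 85%, Ezh2 in 71.9%, Hells in 54.5% and Mcm6 in 51.5%, but Top2a in 18.6% and Mki67 in 6.59%. The chromosome division genes gave 31.1% to 36.8% of the members' UMIs in these nuclei, against 70.3% to 81.2% in the sham macrophage-like nuclei with at least 5 genes.

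Between Enpa-I/R and NS-I/R, 0 of the 31 genes tested in fibroblast-like nuclei were called by edgeR, with 8 at an unadjusted p under 0.05 and 2 called by DESeq2, where 9.60% of all genes were called (3.73% higher and 5.87% lower). Hells, a chromatin remodeller of replicating cells, was at 9.39, 11.2 and 42.5 CPM after I/R and 39.1, 54.8 and 33.4 CPM with enpatoran. Brca1, which acts in repair of broken and stalled DNA, was at 0.268, 0.239 and 8.93 CPM after I/R and 7.64, 15.7 and 5.92 CPM with enpatoran. In both genes NS-I/R 3 lay within the Enpa-I/R range and the other NS-I/R libraries below it. Without NS-I/R 3, 13 of 32 genes were called, a share near the 38.7% of all genes called in that fit. The share of all genes called higher in that fit is not given here. Each of the 13 was higher with enpatoran, among them Hells (log2 fold change 2.04, adjusted p = 1.67e-05 by edgeR) and Brca1 (5.08, adjusted p = 9.48e-05 by edgeR). NS-I/R 3 also held 567 neutrophil-like nuclei, against 407 and 402 in the other NS-I/R libraries.

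In fibroblast-like nuclei the 6 fibroblast markers summed to 8190 to 9410 CPM in NS-Sham, 4170 to 4850 CPM after I/R and 5250 to 6390 CPM with enpatoran. Neutrophil markers there summed to 1.93 to 2.67, 50.2 to 156 and 24.8 to 32.7 CPM. Their part in the changes above was not tested.

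In cardiomyocyte-like nuclei, 11 of 23 genes tested were called between NS-I/R and NS-Sham, 5 higher and 6 lower, where 45.2% of all genes were called (23.7% higher and 21.6% lower). The count among the 23 was therefore near that of all genes. The 5 that rose were Aspm, Nusap1, Prc1, Anln and Ccnb2, and the 6 that fell were Cenpf, Cenpp, Smc2, Atad2, Pola1 and Ezh2. In 8 of the 11 the NS-Sham and NS-I/R libraries did not overlap. That is 34.8% of the 23 tested, against 42.8% of all genes, and of all called genes 94.6% did not overlap. Top2a and 18 others were not tested.

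Anln was at 1.64, 1.31 and 1.11 CPM in NS-Sham, 8.41, 8.45 and 1.37 CPM after I/R and 2.00, 1.24 and 1.70 CPM with enpatoran, so that NS-I/R 3 stayed at the level of the sham libraries. Nusap1 was at 1.64, 1.37 and 1.73 CPM, 7.36, 9.16 and 2.31 CPM, and 1.40, 1.11 and 1.79 CPM. Aspm was at 0.820, 1.13 and 0.990 CPM, 5.68, 5.18 and 0.946 CPM, and 1.00, 0.619 and 1.04 CPM. In each of these 3 genes NS-I/R 1 and 2 were well above the other 7 libraries. The log2 fold changes were 2.17 for Anln (SE 0.57, adjusted p = 0.0113), 2.01 for Nusap1 (SE 0.46, adjusted p = 0.00558) and 1.97 for Aspm (SE 0.57, adjusted p = 0.0166). Prc1 was higher in all 3 NS-I/R libraries, at 2.94, 3.19 and 3.05 CPM against 0.820, 0.535 and 0.743 CPM in NS-Sham (log2 fold change 2.15, SE 0.40, adjusted p = 0.00193). Ccnb2, a mitotic cyclin, rose from 0.937, 0.772 and 0.990 CPM to 2.21, 2.07 and 3.15 CPM (log2 fold change 1.46, adjusted p = 0.00351). Anln, Nusap1, Prc1 and Ccnb2 kept their call with any 1 library left out, and Aspm lost it without NS-Sham 1, NS-Sham 3, NS-I/R 1 or NS-I/R 2. Without NS-I/R 3 the count was 16, 10 higher and 6 lower, where 56.8% of all genes were called.

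**Figure D5:**
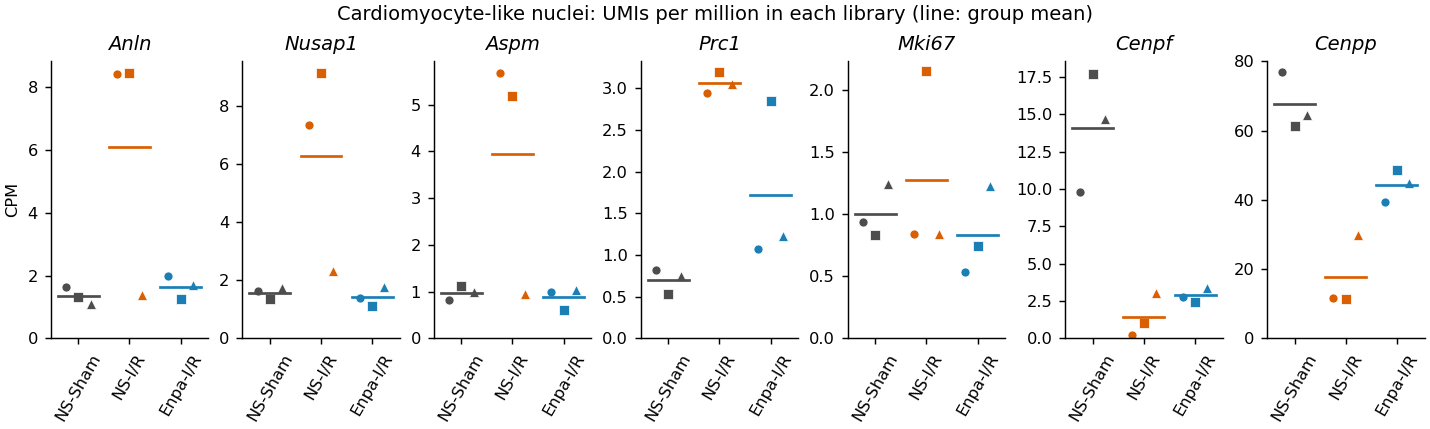
CPM of 7 genes in cardiomyocyte-like nuclei, with 1 point per library, shapes for replicate numbers, colours for groups and lines at group means; each panel has its own linear axis. For Anln, Nusap1 and Aspm the NS-I/R circle and square stand apart from the other libraries, and for Cenpf and Cenpp the NS-Sham points are highest.

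The 5 genes that rose were spread over many nuclei. At least 1 of them was detected in 4.27%, 5.03% and 4.1% of cardiomyocyte-like nuclei in NS-Sham, 21.2%, 20.4% and 8.13% after I/R and 6.9%, 8.45% and 6.16% with enpatoran. At least 2 were detected in 6, 64 and 10 nuclei of the groups. None of the 64 had a UMI of Mki67 or Top2a. With 3 counts as the limit that 0 allows, up to 4.69% of such nuclei could have held one. This limits detection and not expression, since Mki67 was at low levels in the class. Mki67 itself was at 0.937, 0.832 and 1.24 CPM in NS-Sham and 0.841, 2.15 and 0.841 CPM after I/R, with overlapping groups (log2 fold change 0.41, adjusted p = 0.508 by edgeR). The summed level of the 5 genes after I/R was 26.6, 28.1 and 10.8 CPM in cardiomyocyte-like nuclei. It was 18.9, 28.1 and 13.9 CPM in endothelial-like, 18.2, 26.8 and 22.4 CPM in fibroblast-like and 23.5, 13.9 and 19.2 CPM in neutrophil-like nuclei. It was 48.6, 47.5 and 14.9 CPM in macrophage-like and 21.6, 24.6 and 6.34 CPM in pericyte-like nuclei. After I/R the cardiomyocyte-like levels thus lay among those of the other classes and below the macrophage-like level in every library. In the NS-Sham libraries they were 5.85, 5.11 and 5.57 CPM. There the sum was 10.7, 5.54 and 6.75 CPM in pericyte-like, 50.5, 18.5 and 6.86 CPM in endothelial-like and 11.4, 11.6 and 28.5 CPM in fibroblast-like nuclei. It was 61.3, 158 and 330 CPM in macrophage-like nuclei, and neutrophil-like nuclei were too few in sham hearts. Free RNA shared between nuclei was not tested as a source. The deeper cardiomyocyte-like nuclei held more UMIs each, 304, 318 and 103 per 1000 nuclei, against 40.3, 56.7 and 26.1 in endothelial-like nuclei.

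Of the genes that fell, Cenpf was at 9.84, 17.7 and 14.7 CPM in NS-Sham, 0.210, 1.04 and 3.05 CPM after I/R and 2.80, 2.47 and 3.39 CPM with enpatoran, a log2 fold change of -3.34 between the first pair (SE 0.54, adjusted p = 0.000886). Every sham library was above every I/R library of both groups. Smc2, a condensin subunit, fell by 1.31 on the log2 scale (adjusted p = 0.0215), Atad2 by 0.77 (adjusted p = 0.0237), Pola1 by 0.64 (adjusted p = 0.0119) and Ezh2, the Polycomb methyltransferase, by 0.49 (adjusted p = 0.011). Smc2 and Atad2 lost their call when NS-Sham 1, NS-Sham 2 or NS-I/R 2 was left out, and Pola1 and Ezh2 did so with a looser mitochondrial limit of 20%.

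Between Enpa-I/R and NS-I/R, 5 of the 23 genes were called in cardiomyocyte-like nuclei, where 19.0% of all genes were called (7.65% higher and 11.3% lower). Nusap1, Aspm and Anln were lower with enpatoran, with log2 fold changes of -2.08 (SE 0.46, adjusted p = 0.0191), -2.08 (SE 0.57, adjusted p = 0.0335) and -1.82 (SE 0.56, adjusted p = 0.045). The same NS-I/R libraries entered both comparisons, and after I/R 3 these 3 genes were close to the Enpa-I/R levels. Smc4 was lower, at 9.61, 7.18 and 7.26 CPM against 16.6, 15.5 and 12.9 CPM (log2 fold change -0.86, adjusted p = 0.0231). Cenpp was higher, at 39.5, 48.5 and 45.0 CPM against 11.6, 11.3 and 30 CPM (log2 fold change 1.38, adjusted p = 0.0209). Without NS-I/R 3 the count was 12, where 43.9% of all genes were called. It was 0 without NS-I/R 1 or NS-I/R 2, and each of the 5 calls was also lost without any 1 of the Enpa-I/R libraries.

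The class's clusters also shifted. The Mhrt- and Kcnd2-led cluster held 75.9% of cardiomyocyte-like nuclei in NS-Sham, 7.53% after I/R and 32.9% with enpatoran, and an Xirp2-led cluster 0.0607%, 49% and 17.2%. Neutrophil markers in the class summed to 0.416 to 2.11 CPM in NS-Sham, 22.9 to 68.4 CPM after I/R and 14.5 to 27.7 CPM with enpatoran. Their part in the changes was not tested.

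Cenpp, which encodes a constitutive centromere protein, fell in more classes than any other member and needs a separate reading. Its gene spans 189 kb of chr13:49464023-49652785 (GRCm38, minus strand). It contains Aspn, Ecm2, Ogn and Omd, genes of the extracellular matrix, and it overlaps Ippk. All of these lie on the opposite strand, so only counting without regard to strand could mix their reads with those of Cenpp. Whether the authors' counting used strand is not given in the sources used here, so reads of these genes cannot be told apart with certainty. In fibroblast-like nuclei Cenpp was at 39.7, 32.5 and 61.3 CPM in NS-Sham, 8.32, 11 and 24.2 CPM after I/R and 21.8, 37.6 and 36.1 CPM with enpatoran (log2 fold change -1.72 between the first pair, SE 0.36, adjusted p = 0.00223). Ogn moved the same way there, at 181, 172 and 147 CPM in NS-Sham, 12.1, 20.1 and 35.3 CPM after I/R and 55.1, 81.6 and 49.7 CPM with enpatoran. Ippk went the other way, from 22.5, 18.5 and 19.8 CPM to 32.7, 41.8 and 34.4 CPM after I/R. In pericyte-like nuclei Cenpp fell by 1.15 on the log2 scale (adjusted p = 0.00712), while Aspn went from 476, 429 and 452 CPM to 146, 124 and 223 CPM. In cardiomyocyte-like nuclei Cenpp was at 76.8, 61.4 and 64.6 CPM in NS-Sham, above the 30.3, 42.2 and 38.9 CPM of Ogn, and fell by 1.96 on the log2 scale (SE 0.32, adjusted p = 0.000896). Ecm2 there overlapped between the groups, at 6.09, 4.57 and 4.83 CPM in NS-Sham and 5.78, 8.85 and 3.47 CPM after I/R. In macrophage-like nuclei Cenpp was at 53.4, 61.6 and 143 CPM in NS-Sham and 7.68, 21.9 and 10.2 CPM after I/R (log2 fold change -2.69, SE 0.44, adjusted p = 0.000221 by edgeR). Prc1 overlaps Rccd1 and Nusap1 overlaps Oip5, each on the opposite strand. In cardiomyocyte-like nuclei Rccd1 was at 14.8, 15.3 and 15.2 CPM in NS-Sham and 26.0, 23.7 and 23.7 CPM after I/R.

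In endothelial-like nuclei, 3 of 26 genes tested were called between NS-I/R and NS-Sham, 1 higher and 2 lower, where 35.3% of all genes were called (18.1% higher and 17.1% lower). Mcm3 rose from 3.71, 4.87 and 4.75 CPM to 7.98, 8.38 and 12.5 CPM (log2 fold change 1.00, SE 0.31, adjusted p = 0.0222). Atad2 fell from 57.5, 45.3 and 51.2 CPM to 31.9, 30.2 and 32.1 CPM (log2 fold change -0.79, SE 0.16, adjusted p = 0.0017), and Brip1 from 12.5, 15.8 and 13.2 CPM to 6.30, 9.22 and 7.90 CPM (log2 fold change -0.93, adjusted p = 0.0391). None of the 3 overlapped between the groups, where 32.3% of all genes were called without overlap. Atad2 kept its call with any 1 library left out, whereas Mcm3 lost it without NS-Sham 1, NS-Sham 2 or NS-I/R 3 and Brip1 without any sham library, NS-I/R 1 or NS-I/R 2. With a finer clustering, at Leiden resolution 2, the log2 fold change of Brip1 turned positive, to 0.39. The count was 1 without NS-Sham 1 or NS-Sham 2, 6 without NS-Sham 3 and 5 without NS-I/R 3. Mki67 was at 24.1, 8.53 and 0.528 CPM in NS-Sham and 3.36, 10.5 and 3.25 CPM after I/R, and neither it nor Top2a passed (adjusted p = 0.334 and 0.308). The sham library with the high level, NS-Sham 1, held 49.5% of its endothelial-like UMIs of the 42 genes in 5 nuclei, and without it the 2 log2 fold changes were 0.02 and 0.01. Between Enpa-I/R and NS-I/R, 0 of 26 were called by edgeR and 0 by DESeq2, with 6 at an unadjusted p under 0.05, against 6.97% of all genes (3.12% higher and 3.85% lower). Without NS-I/R 3 the count was 3, against 27.2%, and without NS-Sham 3 it was 1.

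In pericyte-like nuclei 8 of the 42 genes had enough UMIs to be tested. Of these, 3 were called between NS-I/R and NS-Sham, where 24.5% of all genes were called (12.4% higher and 12.1% lower), and none of the 3 overlapped between groups, where 21.8% of all genes were called without overlap. Lmnb1 rose from 13.1, 12.9 and 10.1 CPM to 36.8, 34.4 and 23.2 CPM (log2 fold change 1.18, SE 0.31, adjusted p = 0.0115), as it had in fibroblast-like nuclei. Atad2 rose from 23.7, 17.9 and 13.5 CPM to 52.0, 51.6 and 25.3 CPM (log2 fold change 1.03, SE 0.33, adjusted p = 0.0314). Lmnb1 lost its call without NS-I/R 1, and Atad2 without NS-Sham 2, NS-Sham 3, NS-I/R 1 or NS-I/R 2. The third was Cenpp, described above. Between Enpa-I/R and NS-I/R, 0 of 8 were called by edgeR and 0 by DESeq2, with 2 at an unadjusted p under 0.05, against 6.28% of all genes (3.05% higher and 3.22% lower). Without NS-I/R 3 the count was 3, against 24.5%. For the first comparison it was 1 without NS-I/R 1.

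Summed over all nuclei, where changes in the share of each class enter too, all 42 genes were tested. Of these, 15 were called between NS-I/R and NS-Sham, 3 higher and 12 lower, where 47.8% of all genes were called (24.7% higher and 23.1% lower). The 3 that rose were Lmnb1 (log2 fold change 0.95, adjusted p = 0.000323), Mcm3 (1.10, adjusted p = 0.00279) and Mcm5 (0.93, adjusted p = 0.0257). Among the 12 that fell were Cenpf (-2.05), Cenpp (-1.88), Bub1 (-1.86), Hmmr (-1.79), Top2a (-1.22, adjusted p = 0.0351) and Mki67 (-0.95, adjusted p = 0.0319), and the last 2 lost their calls without NS-Sham 3. Between Enpa-I/R and NS-I/R 4 were called, where 16.6% of all genes were called (7.20% higher and 9.40% lower). Cenpp was higher (1.17, adjusted p = 0.0131), and Nusap1 (-1.29), Smc4 (-0.41) and Rrm2 (-1.97, adjusted p = 0.0134) were lower. Without NS-I/R 3 the count was 15, against 43.7% of all genes, and without any 1 of the other 8 libraries it was 0 to 2.

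Other cell cycle genes were taken from 4 lists that hold none of the 42. Like the 42, these lists were chosen with earlier results of these data known, so their counts are not an independent check. Shares of a list are set beside the share of all genes called in the same direction and class. In macrophage-like nuclei, 12 of 20 tested genes of the mitosis list of 58 fell between NS-Sham and NS-I/R and 0 rose (median log2 fold change -1.60), among them Cit (-2.79), Ccnf (-2.72) and Cenpa (-2.62), which encode citron kinase, cyclin F and the centromeric histone. That is 60% of the list's tested genes, against 16.9% of all genes. Of the replication list of 44, 5 of 19 fell there (26.3%) and 0 rose. In fibroblast-like nuclei 10 of 38 replication genes rose (26.3%, against 23.3% of all genes) and 1 fell (2.63%, against 23.3%), with a median log2 fold change of 0.60. Among those that rose were Mcm10 (3.18), Dtl (2.87) and Cdt1 (2.71), which act at replication origins or degrade their licensing factor. In the same nuclei 3 of 25 mitosis genes rose (12%) and 5 fell (20%). In cardiomyocyte-like nuclei 4 of 30 replication genes rose and 3 fell (13.3% and 10%, against 23.7% and 21.6% of all genes), and 4 of 18 mitosis genes rose and 4 fell (22.2% each). In endothelial-like nuclei 4 of 22 replication genes rose and 0 fell, and 18.2% is near the 18.1% of all genes that were higher. There 3 of 14 mitosis genes fell and 0 rose, or 21.4% against 17.1% of all genes. In pericyte-like nuclei 1 of 11 replication genes rose (9.09%, against 12.4%), 0 fell, and 0 of 4 mitosis genes were called by edgeR, with 0 at an unadjusted p under 0.05.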

How the data were processed

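Nuclei from flash-frozen, powdered hearts were sequenced as 10x Genomics 3′ v3.1 libraries, per the labels' protocols. The deposited matrices hold raw UMI counts per gene and barcode, made by the authors with Cell Ranger 8.0.0 per the file headers; the submitters' processing notes name Cell Ranger 6.1.1, Seurat, GRCm39 and GRCh38, and this disagreement was not resolved. Gene positions came from a GRCm38 annotation that holds 32158 (99.6%) of the gene IDs. The 42 genes and the 4 other lists were chosen with earlier results of these data known.

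Barcodes with at least 500 genes and at most 5% mitochondrial UMIs were kept, and 133 to 537 nuclei per library were removed as doublets with Scrublet at a rate of 0.8% per 1000 barcodes. That step removed 158 of 900 nuclei with at least 5 of the 42 genes (17.6%), against 5.51% of all nuclei. Total UMIs per library were 19651794 to 38970153. Nuclei were clustered with scanpy 1.11.5 on 2000 variable genes, without the 42 genes, other cell cycle genes or histones, with 30 components, 15 neighbours and Leiden resolution 1. A cluster was named from 6 markers per cell type, of which at least 3 had to pass.

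UMIs were summed per library and class and tested with edgeR 4.0.16 (quasi-likelihood, TMM, filterByExpr, all 9 libraries in one fit), with Benjamini-Hochberg adjustment over all genes tested in that class and contrast. The difference of effects between classes was tested as an interaction with library as a block. DESeq2 1.42.0, other scaling, filters, clustering resolution, thinning and left-out libraries were alternatives. Largest-cluster fits, fits without scaling and the Enpa-I/R contrast of the interaction were added after the data were seen. Scripts were tested on simulated counts. Summed levels and shares of nuclei carry no test, since members were chosen with results known, and intervals cover counting error only. Named genes were Mki67 and Top2a, up to 8 called members per direction, class and contrast, and up to 3 called genes of each other list; other members were named after their values were seen.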

Additional observations from a re-analysis of the deposited data

Results flagged for a closer look

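The effect of ischemia and reperfusion (NS-I/R against NS-Sham) differed between classes of nuclei for 21 pairs of a gene and 2 classes, by edgeR's interaction test with library as a block and adjustment over all genes tested. Differences are given in log2 units, as the effect in the first class minus that in the second. Between macrophage-like and endothelial-like nuclei they were -2.43 for Kif20b, -2.38 for Kif23, -2.37 for Diaph3, -1.59 for Brip1 and -0.79 for Pola1. Between macrophage-like and fibroblast-like nuclei, the spindle and cytokinesis genes differed by -3.66 (Aspm), -3.25 (Kif23), -3.04 (Diaph3), -2.85 (Anln), -2.72 (Prc1), -2.65 (Kif11) and -2.05 (Kif20b). In the same pair of classes the replication, repair and chromatin genes differed by -2.62 (Mcm5), -1.76 (Brip1), -1.43 (Lmnb1), -1.29 (Atad2), -1.14 (Mcm6) and -1.01 (Pola1). For lack of UMIs, Kif23 was not tested in fibroblast-like nuclei alone, nor Mcm5 in macrophage-like nuclei alone. Between fibroblast-like and endothelial-like nuclei the differences were 0.82 for Lmnb1, 0.75 for Atad2 and -0.70 for Smc4. Of all genes tested, 12.6%, 13.8% and 14.4% differed in these 3 pairs of classes. For enpatoran against saline after ischemia, 0 of the 35, 34 and 34 genes tested differed by edgeR in the 3 pairs, and 0 with DESeq2's size factors. At an unadjusted p under 0.05 there were 0, 7 and 12, and of all genes 1.81%, 2.11% and 1.31% differed.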

How the results depend on the processing

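Counts of members called are given first for NS-I/R against NS-Sham and then for Enpa-I/R against NS-I/R, and the cause of each shift was not tested. The shares of all genes called in these fits are not given in this section. A shift in a count can thus not be told apart from a shift over all genes. Without the low-count filter the counts were 11 (3 with it) and 8 (0 with it) in endothelial-like nuclei, and for the second comparison 7 in fibroblast-like, 2 in macrophage-like and 1 in pericyte-like nuclei (0 each with it). A fit of the 6 libraries of a contrast gave 4 in place of 7 in fibroblast-like nuclei for the first comparison. For the second it gave 0 in place of 5 in cardiomyocyte-like and 2 in place of 4 in all nuclei. For the second comparison DESeq2 gave 7 in all nuclei and 2 in fibroblast-like nuclei, and a 20% mitochondrial limit, or doublets kept, gave 1 in fibroblast-like nuclei. Leiden resolution 2 gave 1 in endothelial-like nuclei. The largest cluster alone, chosen after the data were seen, gave 1 in fibroblast-like and 8 in macrophage-like nuclei for the first comparison.

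Leaving out 1 library at a time gave 1 to 6 in endothelial-like, 3 to 11 in fibroblast-like and 1 to 4 in pericyte-like nuclei for the first comparison. For the second it gave 0 to 15 in all nuclei, 0 to 13 in fibroblast-like, 0 to 12 in cardiomyocyte-like, 0 to 3 in endothelial-like, 0 to 3 in pericyte-like and 0 to 2 in macrophage-like nuclei, and each of these highest counts came without NS-I/R 3. For the classes whose effects were compared, the tests without the low-count filter gave 14 (macrophage-like and endothelial-like), 20 (macrophage-like and fibroblast-like) and 5 (fibroblast-like and endothelial-like) for the first comparison, and 1, 2 and 8 for the second.

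The shares of nuclei with at least 3 genes changed as follows, in percentage points. Without thinning, the difference for the first comparison was 0.38 in all nuclei (-0.16 with it) and 5.23 in fibroblast-like nuclei (0.22), and for the second -0.69 in all nuclei (0.10), 3.31 in macrophage-like (1.30) and -0.96 in endothelial-like nuclei (-0.33). A limit of at least 2 genes gave 1.11 in all, 0.45 in endothelial-like and 1.86 in fibroblast-like nuclei for the first comparison. For the second it gave -1.49 in all, -0.86 in endothelial-like, 0.10 in fibroblast-like and -1.24 in macrophage-like nuclei. In endothelial-like nuclei a minimum of 1000 genes gave 0.45 and -0.57 and Leiden resolution 2 gave 0.69 and -0.82, and a limit of at least 5 genes gave -0.18 for the second. The log2 ratio of summed CPM there was -0.41 with Leiden resolution 2 in place of -0.19.

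Some single genes changed sign, none of them from a called value except Brip1 in endothelial-like nuclei (0.39 with Leiden resolution 2). For the first comparison Mki67 was at -0.10 with the 20% limit in cardiomyocyte-like nuclei, and at -0.23 (without NS-I/R 2) to 0.64 with 1 library left out. In endothelial-like nuclei Mki67 ranged from -1.81 to 0.02 and Top2a from -1.46 to 0.01 over such fits, with the highest values without NS-Sham 1. In fibroblast-like nuclei they ranged from -6.19 to 0.17 and from -1.78 to 1.42, with the highest values without NS-Sham 3; the -6.19 came without NS-I/R 3, where both other NS-I/R libraries were at 0, and depends on the prior count. For the second comparison Mki67 ranged from -1.28 to 0.04 (without NS-I/R 2) in macrophage-like nuclei. Top2a there ranged from -0.21 (without NS-I/R 3) to 0.57, with -0.12 without Enpa-I/R 1, and was at -1.36 in the largest cluster. In all nuclei it ranged from -0.12 (without Enpa-I/R 2) to 0.67. Of the named genes' log2 fold changes, 1170 kept direction and side of the threshold with 1 library left out, 320 lost their call, 4 gained one and 9 changed sign. DESeq2 size factors left 166 as they were and 1 lost, and no scaling 161 and 6, while the latter moved the median of all genes to 0.15 in fibroblast-like, 0.19 in pericyte-like and 0.13 in all nuclei.

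Libraries with the same number did not deviate together: their correlations were -0.14 to 0.11, with 1 of 54 pairs over 0.1, so they share only a number. With the number as a replicate block the counts were 11 and 3 in all, 11 and 4 in cardiomyocyte-like, 5 and 0 in endothelial-like, 5 and 1 in fibroblast-like, 21 and 0 in macrophage-like and 3 and 0 in pericyte-like nuclei. Of the named genes' calls, 15 were lost with the block. Low counts left 34 of the 42 genes untested in pericyte-like and 10 in macrophage-like nuclei, though in NS-Sham the former class held more UMIs (3058700 against 2097760). The 42 genes' own UMIs there were 1100 and 3616.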

Other observations

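One cluster met no class. It was led by Hspa1a and Hspa1b, heat-shock chaperone genes, and held 432 nuclei, of which 422 came from NS-I/R, 10 from Enpa-I/R and 0 from NS-Sham. The 42 genes summed to 1040 ± 161 CPM in its NS-I/R libraries (SD, n = 3), and 6.23% ± 1.82 of its thinned nuclei had at least 3 of them. Epicardial mesothelial-like nuclei had at least 5 of the genes in 6 of 50 nuclei in NS-I/R (12%). In lymphatic endothelial-like nuclei of NS-Sham 2 the genes summed to 1783 CPM, and 1 nucleus held 69.0% of those UMIs.

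Myc, a transcription factor that drives entry into the cycle, was higher in NS-I/R than in NS-Sham in all 5 classes tested, with log2 fold changes of 5.93 in endothelial-like, 5.56 in pericyte-like, 3.65 in fibroblast-like, 3.05 in cardiomyocyte-like and 2.00 in macrophage-like nuclei. It was lower in Enpa-I/R than in NS-I/R in macrophage-like (-1.29), fibroblast-like (-0.95), cardiomyocyte-like (-1.57) and endothelial-like nuclei (-1.57). Gadd45g, a stress-induced inhibitor, was higher after ischemia in all 5 classes, by 2.56 to 4.44 on the log2 scale. Cdkn1a, which encodes the inhibitor p21, was higher in pericyte-like (4.03), cardiomyocyte-like (2.87), macrophage-like (2.26) and endothelial-like nuclei (1.91). Of the list of G1 cyclins, E2F factors and their kinases, 6 of 13 genes tested in fibroblast-like nuclei rose (46.2%) and 0 fell, among them E2f1 (2.08), where 23.3% of all genes rose and 23.3% fell. In macrophage-like nuclei 1 of 12 rose (8.33%) and 0 fell, where 17.9% and 16.9% of all genes did. Of the inhibitors, 7 of 19 rose (36.8%) and 6 fell (31.6%) in fibroblast-like nuclei, and 4 of 14 rose (28.6%) and 5 fell (35.7%) in macrophage-like nuclei.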
